A study of Rattus norvegicus with 6 samples.

Results

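Connexins and adhesion proteins of the intercalated disc, the junction that joins heart muscle cells end to end, were followed at the RNA level in cultured neonatal rat ventricular myocytes given compound 915 or its solvent. The 10 genes, chosen with earlier results of these data known, were taken by name from the deposited gene table: the connexin genes Gja1, Gja5 and Gjc1, the N-cadherin gene Cdh2, the desmosomal cadherin genes Dsg2 and Dsc2, and the genes Dsp, Pkp2, Jup and Ctnna3 of the cytoplasmic plaque. They occupied 11 of the 21648 gene rows, because Ctnna3 is carried under 2 Ensembl identifiers, and all 11 rows passed the filter on low counts that left 14253 genes for testing.

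Ventricular cells of wild-type pups, taken on postnatal day 3, were plated for 90 min to let fibroblasts attach, seeded at 50 to 70% confluence with 100 µM bromodeoxyuridine, and moved after 2 days to medium with insulin, transferrin and selenium. Cultures then received 10 µM 915, named in the design text as an agonist of estrogen-related receptors (ERRs), or an equal volume of the solvent DMSO, for 72 h. Each group held 3 libraries, labelled as biological replicates without saying whether the cells were isolated separately, so every p-value rests on variation among these libraries, part of which may be technical. Per library, gene counts summed to between 36799845 and 40010826 in the DMSO group and to between 30639244 and 38078137 in the 915 group.

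Gap junction channels are built from connexins, of which connexin 43, encoded by Gja1, is the main one of the working ventricle, whereas connexin 40 (Gja5) and connexin 45 (Gjc1) are known from the atria, the conduction system and the embryonic heart. N-cadherin joins neighbouring myocytes and is tied to actin by catenins, and the desmosomal cadherins are tied to desmin filaments by plakoglobin (Jup), plakophilin-2 (Pkp2) and desmoplakin (Dsp). In the heart these structures merge into a mixed junction, the area composita, in which alpha-T-catenin (Ctnna3) binds plakophilin-2, and inherited defects of desmosomal genes are known to cause arrhythmogenic cardiomyopathy.

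The promoters of a connexin gene that changed and of one that did not pass the test are shown first, because both belong to 1 family and the compound is directed at a DNA-binding receptor. RefSeq sequences on the assembly GRCr8, from 250 bases before to 50 bases after the gene start, were on hand for 7 of the 10 genes (Gja1, Gja5, Jup, Dsp, Dsc2, Dsg2 and Ctnna3). Gja1 lies here at chr20:36302314-36302613 on the plus strand and Gja5 at chr2:187290977-187291276 on the plus strand. Capitals mark the single match to the motifs searched.
Gja1: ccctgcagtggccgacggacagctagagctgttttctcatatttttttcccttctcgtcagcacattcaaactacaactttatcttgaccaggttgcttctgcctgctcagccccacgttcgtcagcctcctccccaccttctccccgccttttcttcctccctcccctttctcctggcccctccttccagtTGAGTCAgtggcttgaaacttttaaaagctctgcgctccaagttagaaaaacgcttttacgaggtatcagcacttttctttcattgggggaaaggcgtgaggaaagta
Gja5: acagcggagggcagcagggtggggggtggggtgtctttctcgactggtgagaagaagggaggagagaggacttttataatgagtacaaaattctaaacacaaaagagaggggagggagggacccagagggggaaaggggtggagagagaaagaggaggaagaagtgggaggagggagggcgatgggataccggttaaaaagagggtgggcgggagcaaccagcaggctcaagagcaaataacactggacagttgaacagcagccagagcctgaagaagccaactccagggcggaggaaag
Of the motifs known for ERRs and for cardiac connexin genes, 3 were searched on both strands. The ERR response element TNAAGGTCA matched none of the 7 promoters and 1.2% of all 33469 promoters in the table. The AP-1 site TGANTCA, which reads the same on both strands, matched the Gja1 promoter once, as TGAGTCA from 58 to 52 bases before the gene start, and 7.33% of all promoters. The T-box half-site GGTGTGA matched none of the 7 and 3.83% of all. A match describes letters in this window and shows no binding.

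With 915, Gja1 transcripts rose 2.00-fold, the desmosomal genes Dsc2 and Pkp2 rose 1.59-fold and 1.54-fold, and Cdh2, Dsg2, Jup and Dsp rose by 1.15-fold to 1.26-fold, whereas Gjc1 fell. In the test of all genes (edgeR's quasi-likelihood test, adjusted p under 0.05) 9 of the 11 rows passed, where 49.8% of all genes did. Of the rows, 8 were higher, against a background of 24.3% of all genes tested, and 1 was lower, against 25.5%. Of the 9 genes with a single row, 7 were higher, 1 was lower and 1 (Gja5) did not pass. The median log2 fold change was 0.27 over the 11 rows and −0.01 over all genes tested. In 7 rows every 915 library lay above every DMSO library (23.9% of all genes did), and in 1 every 915 library lay below (32.8%). These directions are relative to library totals scaled by TMM, and most of them reverse relative to cardiomyocyte marker transcripts, as given below.

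**Figure D1:**
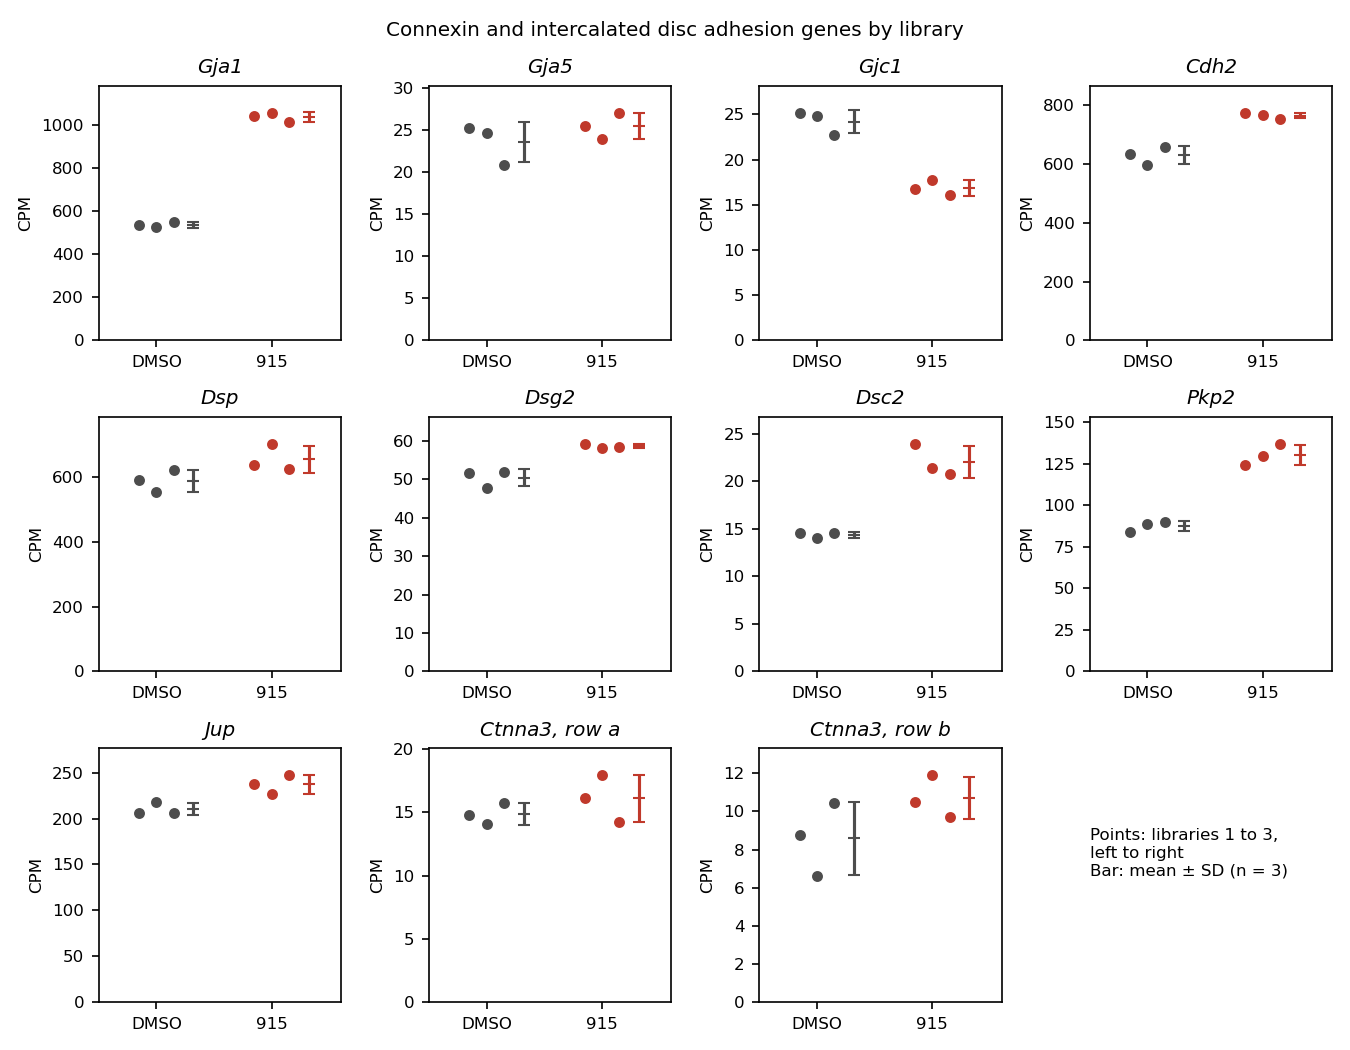
Deposited CPM (vertical axes, from 0) of the 10 genes in DMSO libraries (grey) and 915 libraries (red), with Ctnna3 shown as its 2 rows, a for ENSRNOG00000000373 and b for ENSRNOG00000000378. Points are libraries and bars are mean ± SD (n = 3): the 915 points of Gja1 lie between 1012 and 1054 CPM against 524 to 548 CPM with DMSO, while those of Gja5 overlap the DMSO points.

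Gja1 (ENSRNOG00000000805), for connexin 43, was counted at 535, 524 and 548 CPM (counts divided by the library total and put on 1 common scale) in DMSO libraries 1 to 3 and at 1043, 1054 and 1012 CPM in 915 libraries 1 to 3. The groups are far apart and the libraries within each differ by a few percent. The log2 fold change was 1.00 ± 0.0436 (SE; edgeR adjusted p = 3.43e-10), an increase that 271 of the 14253 genes tested reached or exceeded, Gja1 included. The total of the 11 rows rose from between 2112 and 2258 CPM to between 2919 and 3027 CPM. Most of that rise was Gja1 itself, whose mean went from 536 to 1037 CPM.

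Gja5 (ENSRNOG00000017484), for connexin 40, stood at 25.3, 24.7 and 20.9 CPM with DMSO and at 25.5, 23.9 and 27.0 CPM with 915. The groups overlap, and the log2 fold change of 0.16 ± 0.0825 did not pass (edgeR adjusted p = 0.124). Gjc1 (ENSRNOG00000048838), for connexin 45, was the member that fell. Its values were 25.1, 24.8 and 22.7 CPM with DMSO and 16.8, 17.8 and 16.1 CPM with 915, without overlap, and its log2 fold change was −0.47 ± 0.0749 (edgeR adjusted p = 1.18e-04), or 1.39-fold lower.

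Within each library, which removes any effect of scaling between libraries, Gja1 supplied 87.4% ± 0.922 of the reads of 17 connexin genes in the DMSO libraries and 94.4% ± 0.361 in the 915 libraries (mean ± SD over 3 libraries). The 915 shares of 94.5%, 94.8% and 94.0% all lie above the DMSO shares of 87.2%, 86.6% and 88.4%. The log2 ratio of Gja1 to Gjc1 counts rose from between 4.40 and 4.59 to between 5.89 and 5.97. For both differences the exact permutation test, two-sided, gave p = 0.1, which is its lower limit with 3 libraries a side, and 0.117 adjusted over the 7 relations computed. Reads are not corrected for transcript length, so the shares compare libraries and do not rank the connexins by abundance.

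Of 16 other connexin and pannexin genes with a row, 7 passed the filter. Of these 1 was higher and 4 were lower, beside 24.3% and 25.5% of all genes tested. Gja3, for connexin 46, was at 18.2 ± 1.61 CPM with DMSO and 11.01 ± 1.04 with 915 (mean ± SD over 3 libraries, as for all levels below; log2 fold change −0.67 ± 0.0985, SE, edgeR adjusted p = 6.06e-05). Panx3, a pannexin known from cartilage and bone, was counted 34, 27 and 37 times with DMSO and 2, 2 and 8 times with 915. Other calls, named after their values were seen, were a decrease of the endothelial connexin gene Gja4 (−1.17 ± 0.265) and an increase of Gjb2 (0.76 ± 0.207), both under 3 CPM.

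Among the adhesion receptors, Cdh2 (ENSRNOG00000015602) was at 634, 596 and 657 CPM with DMSO and at 772, 766 and 754 CPM with 915. The groups do not overlap, and the log2 fold change was 0.33 ± 0.0463 (edgeR adjusted p = 4.01e-05). Gja1 rose more than Cdh2: the log2 ratio of their counts lay between −0.26 and −0.18 in the DMSO libraries and between 0.42 and 0.46 in the 915 libraries (exact permutation p = 0.1, the smallest possible; 0.117 adjusted).

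The desmosomal cadherins moved by unequal amounts. Dsc2 (ENSRNOG00000039969), for desmocollin-2, was at 14.5, 14.0 and 14.5 CPM with DMSO and at 23.9, 21.5 and 20.8 CPM with 915, so that its log2 fold change was 0.67 ± 0.0784 (SE; edgeR adjusted p = 7.33e-06). Dsg2 (ENSRNOG00000016526), for desmoglein-2, was at 51.7, 47.8 and 51.8 CPM and then at 59.1, 58.1 and 58.5 CPM, and its log2 fold change was 0.27 ± 0.0546 (SE; edgeR adjusted p = 1.05e-03). Neither gene's groups overlap. The share of Dsg2 in the reads of the pair was 77.8% ± 0.425 with DMSO and 72.7% ± 1.34 with 915 (n = 3 each), with no overlap (exact permutation p = 0.1, the smallest possible; 0.117 adjusted).

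In the plaque, Pkp2 (ENSRNOG00000001825), which links desmosomal cadherins to desmoplakin, rose from 83.9, 88.6 and 89.9 CPM in the DMSO libraries to 124, 130 and 137 CPM in the 915 libraries. Its log2 fold change was 0.62 ± 0.0546 (edgeR adjusted p = 3.93e-07), and every 915 library lies far above every DMSO library. Dsp (ENSRNOG00000013928), the anchor of desmin filaments, was at 590, 553 and 621 CPM with DMSO and at 637, 700 and 623 CPM with 915. The groups are separated only by the gap between DMSO library 3 and 915 library 3, and the log2 fold change was 0.20 ± 0.0552 (edgeR adjusted p = 7.59e-03). The log2 ratio of Pkp2 to Dsp counts rose by 0.42 without overlap (exact permutation p = 0.1, the smallest possible; 0.117 adjusted).

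Jup (ENSRNOG00000015380), for plakoglobin, which serves both desmosomes and adherens junctions, was at 206, 218 and 206 CPM with DMSO and at 238, 226 and 247 CPM with 915. The lowest 915 value lies above the highest DMSO value, and the log2 fold change was 0.22 ± 0.0506 (edgeR adjusted p = 2.20e-03).

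Ctnna3 gave no uniform result. Its row ENSRNOG00000000373 was at 14.8, 14.0 and 15.8 CPM with DMSO and at 16.1, 17.9 and 14.2 CPM with 915 (log2 fold change 0.16 ± 0.0936, edgeR adjusted p = 0.172). Its row ENSRNOG00000000378 was at 8.75, 6.598 and 10.4 CPM and at 10.5, 11.9 and 9.69 CPM, and although the groups overlap it passed narrowly (0.36 ± 0.142, edgeR adjusted p = 0.0466). That call was lost without DMSO library 1 or 2 or 915 library 1 or 2 (edgeR adjusted p = 0.0908, 0.147, 0.0936 and 0.147), and also with library totals in place of TMM (0.31, edgeR adjusted p = 0.0910). With the counts of both rows summed, an alternative chosen after seeing the data, Ctnna3 stood at 0.24 ± 0.0945 (edgeR adjusted p = 0.0490). On the RefSeq assembly Lrrtm3 lies inside Ctnna3, and how the authors treated overlapping genes and strand is not given in the sources used here.

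**Figure D2:**
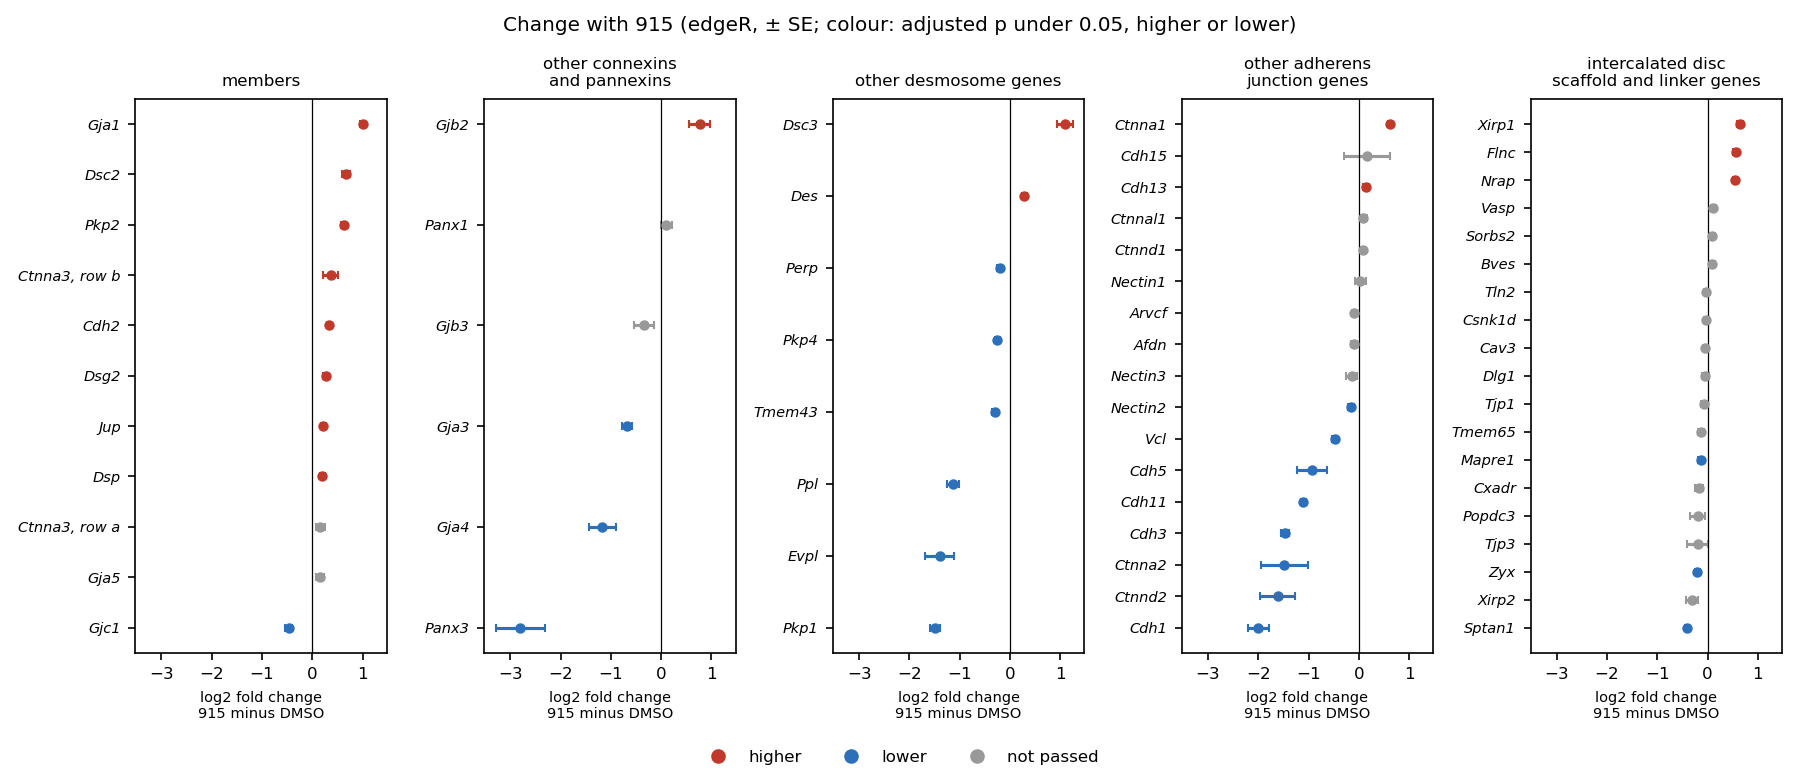
Log2 fold change of 915 minus DMSO (horizontal axes) with its SE for the 11 rows and for reported genes of 4 related lists, coloured by edgeR call (adjusted p under 0.05). Gja1 is the highest and Gjc1 the lowest of the 11 rows, and the other desmosome list holds 6 lower and 2 higher genes.

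Across 4 lists of related genes, the connexins above included, 54 genes were tested, of which 10 were higher and 22 lower (median log2 fold change −0.14), beside 24.3% and 25.5% of all genes tested. Of 12 other desmosome genes 8 passed the filter, of which 2 were higher and 6 lower (median log2 fold change −0.28). Pkp1, a plakophilin of stratified epithelia, went from 30.9 ± 3.81 to 10.6 ± 0.637 CPM (−1.49 ± 0.0939, edgeR adjusted p = 1.23e-08), while its relative Pkp2 rose. Ppl, for the epithelial plaque protein periplakin, went from 10.1 ± 1.02 to 4.47 ± 0.279 CPM (−1.13 ± 0.119, edgeR adjusted p = 2.45e-06). Dsc3, a desmocollin of basal epithelia, rose with Dsc2, from 3.34 ± 0.536 to 6.91 ± 1.20 CPM (1.09 ± 0.161, edgeR adjusted p = 6.30e-05). Des, the muscle filament protein desmin, also rose, at 924 ± 26.5 CPM and then 1090 ± 44.6 CPM (0.29 ± 0.0483, edgeR adjusted p = 2.07e-04).

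Of 17 other adherens junction genes, all tested, 2 were higher and 8 lower (median −0.14), beside 24.3% and 25.5% of all genes tested. Ctnna1, for the widely expressed alpha-E-catenin, was at 574 ± 14.8 CPM with DMSO and rose to 855 ± 21.6 CPM (0.62 ± 0.0452, edgeR adjusted p = 5.25e-08). Against the cardiomyocyte marker sum described below, Ctnna1 was at 0.05 and did not pass (edgeR adjusted p = 0.272). The share of Ctnna3 in alpha-catenin reads was 3.93% ± 0.543 with DMSO and 3.04% ± 0.382 with 915, with overlapping groups (n = 3 each; exact permutation p = 0.2, also adjusted). Cdh3, for P-cadherin, fell from 33.4 ± 2.63 to 11.7 ± 0.671 CPM (−1.47 ± 0.0803, edgeR adjusted p = 2.99e-09), and Cdh11, a cadherin of mesenchymal cells, from 169 ± 7.87 to 75.6 ± 2.35 CPM (−1.11 ± 0.0507, edgeR adjusted p = 5.04e-10). Vcl, for vinculin, which couples catenins to actin, fell from 681 ± 14.0 to 472 ± 14.4 CPM (−0.48 ± 0.0443, edgeR adjusted p = 6.79e-07). The second gene that rose, named after its values were seen, was Cdh13 at 0.14 ± 0.0531 (edgeR adjusted p = 0.0371), with overlapping groups, and 5 of the 17 were lower without 915 library 3. The beta-catenin gene was not analysed here.

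Of 22 scaffold and linker genes of the disc, 5 were higher, 4 were lower and 13 did not pass (median −0.05). Among all genes tested 24.3% were higher and 25.5% lower. Among the genes that rose were Xirp1 (0.65 ± 0.0574), Nrap (0.54 ± 0.0461) and Flnc (0.56 ± 0.0462), which encode actin-binding proteins of the disc. Tjp1, whose product ZO-1 binds connexin 43, did not pass with TMM: its level was 175 ± 10.7 CPM in the DMSO libraries and 159 ± 5.87 CPM in the 915 libraries (−0.08 ± 0.0528, edgeR adjusted p = 0.217). The log2 ratio of Gja1 to Tjp1 counts rose by 1.08, from between 1.58 and 1.69 to between 2.67 and 2.75. Other proteins of the disc whose genes did not pass were the receptor Cxadr (−0.17 ± 0.0806), Tmem65 (−0.13 ± 0.0554) and Xirp2 (−0.31 ± 0.126). Xirp2 was called lower without DMSO library 2 (−0.44) or 915 library 2 (−0.40), and Cxadr (−0.26) and Tmem65 (−0.17) without 915 library 2. With library totals in place of TMM all 4 were called lower, with Tjp1 at −0.14, Cxadr at −0.23, Tmem65 at −0.19 and Xirp2 at −0.37 (edgeR adjusted p = 0.0443, 0.0307, 0.0106 and 0.0247). Against the cardiomyocyte marker sum described below they were lower too, between −0.88 and −0.65. On that scale the rises of Xirp1, Nrap and Flnc were lost, at 0.08, −0.026 and −0.0101 (edgeR adjusted p = 0.177, 0.618 and 0.838). Xirp2 also passed without the filter on low counts (−0.31, edgeR adjusted p = 0.00862). Among the lower genes, named after their values were seen, were Sptan1, Zyx and Mapre1, at −0.41, −0.21 and −0.14.

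**Figure D3:**
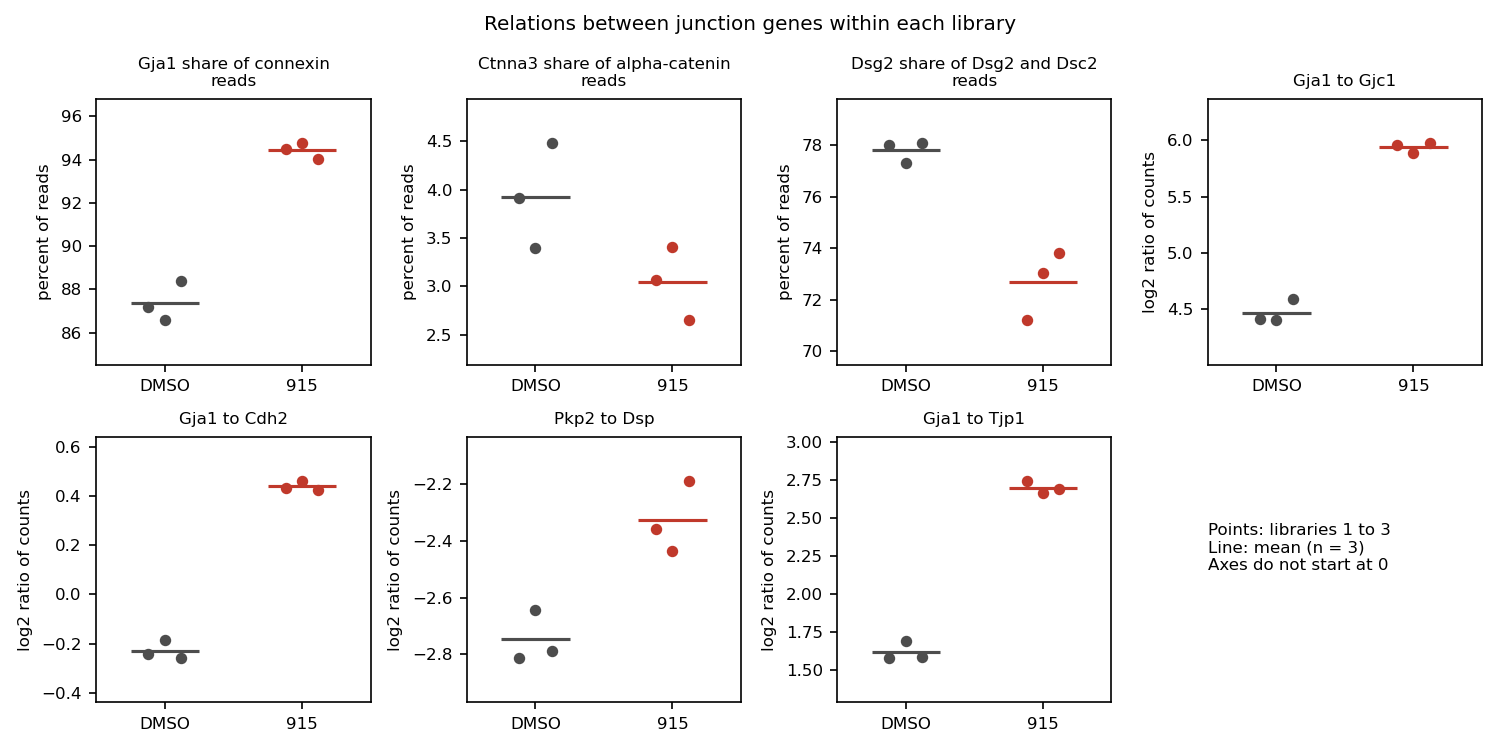
Shares of reads and log2 ratios of counts (vertical axes, which do not start at 0) computed inside each library, with 1 point per library and a line at the mean (n = 3). In 6 of the 7 relations the DMSO and 915 libraries do not overlap, and the share of Ctnna3 in alpha-catenin reads is the exception.

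The cultures hold several cell types, whose markers moved in different directions. Cardiomyocyte markers mostly rose, as most of the junction members did, and the median log2 fold change of every other marker list was negative. Of 14 cardiomyocyte markers listed, 12 had a row, and 11 of these were higher (median 0.52). Their summed level was 20768 to 21719 CPM with DMSO and 30213 to 30733 CPM with 915. Fibroblast markers, present in every library, went from between 32048 and 34024 to between 17323 and 18237 CPM, with 9 of 12 lower and 2 higher (median −0.60). Collagen and fibronectin transcripts made up most of that sum, so it says little about the other fibroblast markers, the 2 higher ones included. Of 10 smooth muscle and pericyte markers listed, 8 had a row, and 6 of these were lower (1901 to 2052 CPM and then 776 to 831 CPM). Mesothelial and epithelial markers were lower in 9 of 13 cases (149 to 156 CPM and then 80.3 to 87.6 CPM). Of the endothelial markers with a row 5 of 11 were lower and 1 higher (79.6 to 82.9 and 65.5 to 67.2 CPM). Of the macrophage markers 5 of 10 tested were lower (215 to 232 and 109 to 132 CPM), and of the neural crest and Schwann markers 4 of 6 tested (47.4 to 47.9 and 32.2 to 35.7 CPM). Beside these counts, 24.3% of all genes tested were higher and 25.5% lower. No marker with a row was at 0 in all 6 libraries. The macrophage marker Cx3cr1, which did not pass the filter, was counted 2, 2 and 0 times with DMSO and was at 0 in the 915 libraries. In bulk RNA fewer cells of a type and less marker RNA per cell cannot be told apart. The part of these shifts in the junction results was not tested.

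Set against the summed counts of the 12 cardiomyocyte markers in place of the library total, only Gja1 of the 11 rows remained higher, at 0.43 ± 0.0463 (edgeR adjusted p = 5.02e-07). On that scale the median of all genes was −0.58, and of 14253 genes tested 363 were higher and 11251 lower. Dsc2 at 0.10 ± 0.0852 and Pkp2 at 0.05 ± 0.0539 no longer passed (edgeR adjusted p = 0.295 and 0.363), and 7 rows were lower, with Gjc1 at −1.04 and Gja5, Cdh2, Dsp, Dsg2, Jup and the first Ctnna3 row between −0.41 and −0.24. Gjc1 was the only one of the 11 rows below the median of all genes on either scale. The reference sum consists of transcripts that themselves rose, so this scale compares junction genes with sarcomere and calcium-handling genes and not with the number of myocytes.

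**Figure D4:**
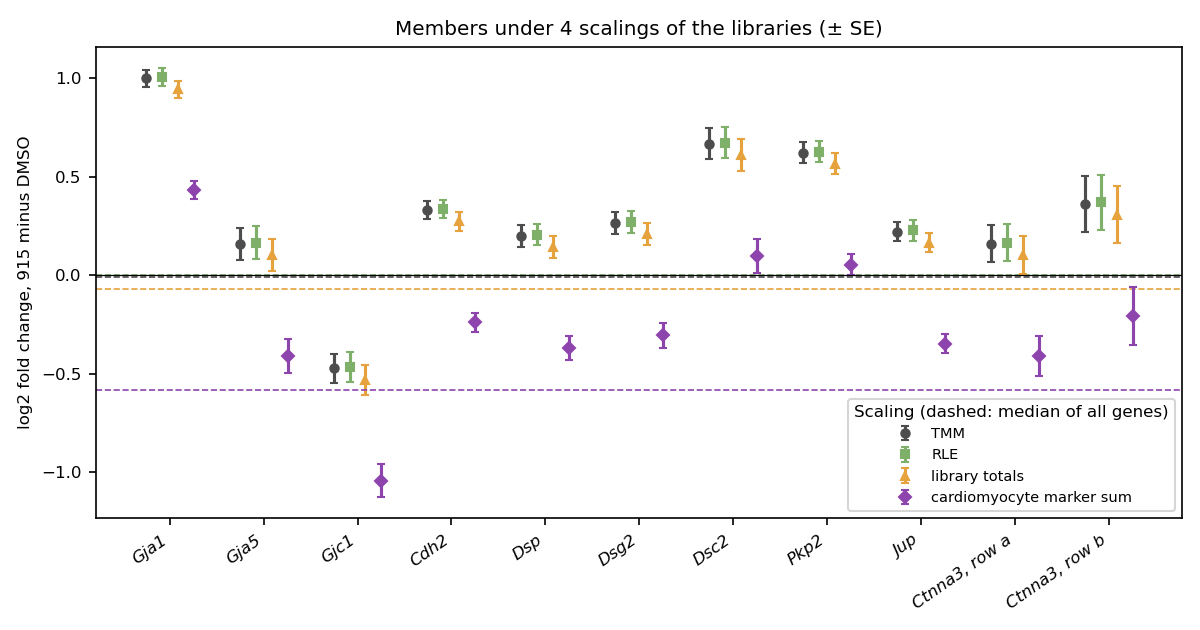
Log2 fold change of 915 minus DMSO (vertical axis) with its SE for the 11 rows under 4 scalings of the libraries, with dashed lines at the median of all genes under each. TMM, RLE and library totals give closely similar values, whereas relative to the cardiomyocyte marker sum Gja1 alone is called higher and Cdh2, Dsp, Dsg2, Jup, Gja5 and Ctnna3 turn negative.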

How the data were processed

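Total RNA of 3 DMSO and 3 915 cultures was sequenced. STAR 2.5.1a, Subread featureCounts 1.4.6-p5 and the build Rnor_6.0 are named in the submitters' processing notes. Settings for strand and multi-mapping reads: not given in the sources used here. The counts deposited by the authors are raw counts per gene, in 22641 rows, and 993 rows with an Ensembl identifier already present and equal counts were dropped. The CPM values deposited by the authors are those counts divided by 1 total per library, of which the table holds 93.1% to 93.7%. 3 counts correspond to 0.0698 to 0.0917 CPM, which covers counting error only. Between replicate libraries the chi-square statistic over genes was 5.45 to 11.6 times its degrees of freedom, so no library repeats another.

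Fold changes were tested two-sided with edgeR 4.0.16 (R 4.3.3): filterByExpr, TMM, quasi-likelihood fit on group alone, Benjamini-Hochberg adjustment over 14253 genes and a threshold of 0.05. The SE is the log2 fold change divided by the square root of F. Ratios of counts used an offset of 0.5 and exact permutation tests. Of 8 relations 7 were computed, since beta-catenin was not analysed here. The procedure was tested on simulated counts. Members and lists were chosen with earlier results of these data known. Of 170 list entries 151 matched, Col1a2 through the Entrez number of RefSeq. Named were all members, 11 disc genes fixed by name (of which Ctnnb1 was not analysed here) and up to 3 genes per related list with the smallest p. A few of the genes so chosen are not reported here. Marker genes are given as lists. DESeq2 1.42.0, 3 other scalings, no filter, a replicate block and leaving out each library were alternatives. A table of RefSeq genes on GRCr8 gave promoters and neighbours. Protein sequences and transcript lengths were not used here, so levels are not compared between genes.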

Additional observations from a re-analysis of the deposited data

How the results depend on the processing

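Of the alternatives, scaling on the cardiomyocyte marker sum changed the most. Under it 1 row of the members was higher and 7 lower, other connexins and pannexins had 0 higher, other desmosome genes 1 higher, other adherens junction genes 0 higher and 15 lower, scaffold and linker genes 1 higher and 17 lower, and all genes 363 higher and 11251 lower. Values that reversed there were Gja5 (−0.41), Cdh2 (−0.24), Dsp (−0.37), Dsg2 (−0.31), Jup (−0.35), the Ctnna3 rows (−0.41 and −0.21), Nrap (−0.026), Des (−0.28) and Flnc (−0.0101). With library totals and no TMM, 7 members were higher and 1 lower, since the Ctnna3 row ENSRNOG00000000378 no longer passed, other adherens junction genes had 1 higher and the scaffold and linker genes 8 lower. With RLE scaling, DESeq2 or no filter the members had 8 higher and 1 lower. Leaving out 1 library gave 7 to 8 members higher and 1 lower. It gave 1 to 2 higher and 5 to 7 lower among other adherens junction genes (1 higher without DMSO library 1 or 3 or 915 library 1 or 2) and 3 to 6 lower among scaffold and linker genes. All 7 within-library relations kept their direction under every alternative run, and scaling does not touch them. Much of this was fixed in advance. Leaving out 1 library cannot reverse a relation whose groups do not overlap, and the block leaves the mean difference unchanged. With the replicate number as a block, 7 members were higher and 1 lower, since the Ctnna3 row ENSRNOG00000000378 no longer passed (0.38, edgeR adjusted p = 0.0814), and other adherens junction genes had 1 higher. The block left 2996 genes higher and 3197 lower. Same-numbered libraries did not deviate together (correlations of −0.0339, −0.111 and −0.0897). With 3 libraries a group this check cannot tell whether same-numbered cultures shared an isolation or a day, and the labels give only a number. Of the 16 other connexin and pannexin genes, 9 did not pass the filter on low counts and were not tested. The causes of these changes were not tested beyond the construction of each alternative.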
